A study of Homo sapiens with 4 samples.

Results

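The regions around the starts of 6 genes that regulate the senescence arrest were followed through Hi-C contact maps of IMR90 cells. These cells are fibroblasts from human lung. The genes are RB1, RBL1, RBL2, MDM2, CDKN1A and CDKN1B. For each gene the bin of about 200 kb with its start of transcription was taken (the start bin), with 5 bins on each side. The 6 windows did not overlap and held 66 of the 14310 bins of the autosomes and the X chromosome. The rule used the positions of the gene starts and no contact value.

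In Hi-C, DNA in fixed nuclei is digested, ends that are neighbours in space are ligated, and sequencing of the ligated fragments counts how often any pair of regions met. The cells of all 4 samples carried a fusion of RAS with an oestrogen receptor (pLNCX2 ER:HRAS G12V), which is switched on by 4-hydroxytamoxifen (4OHT). Growing cells (Grow) had no 4OHT, and 6 days of 100 nM 4OHT gave oncogenic RAS-induced senescence (OIS). In Grow-shA1 and OIS-shA1 a hairpin RNA in the vector pMSCV miR shHMGA1 was directed against HMGA1, which binds the minor groove of AT-rich DNA. Cells were kept at 5% O2. The series holds 4 samples, 2 of each shA1 condition, pooled in 1 map per condition. For the Grow and OIS maps without the hairpin no label gives the construct, vector or treatment. The paper describes the shA1 Hi-C as matching these earlier data. No sample of the series stands behind these 2 maps, which the laboratory made earlier. A difference between a shA1 map and a map without shA1 therefore cannot be told apart from a difference between the data sets. The RAS differences, which are OIS minus Grow without the hairpin and OIS-shA1 minus Grow-shA1 with it, each stay within 1 data set and share no map. With 1 map per condition there is no spread between replicates, and no difference was tested. The maps hold no expression values, so neither the cell type nor the loss of HMGA1 could be checked in them.

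Cell cycle arrest in senescence rests on a pair of linked pathways. In the first, the pocket proteins RB (gene RB1), p107 (RBL1) and p130 (RBL2) bind E2F factors and hold back genes needed for DNA replication, and p107 and p130 do so within the DREAM complex with MuvB proteins. In the second, p53 raises CDKN1A, which encodes p21, an inhibitor of the kinases that inactivate the pocket proteins, while MDM2, itself a p53 target, marks p53 for destruction. CDKN1B encodes p27, a related kinase inhibitor. Chromosomes are divided into an active A and an inactive B compartment, each of which prefers contact with its own kind.

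The bins end at cut sites of HindIII, the enzyme used. The left edges of the 6 start bins are printed because they fix where each measured region begins, with 30 bases of the plus strand of GRCh37 each and the HindIII site in capitals.
RB1, chr13:48795755-48795784: cctcaggaacacAAGCTTgtctgctctgta
RBL1, chr20:35599081-35599110: agagacagaggcAAGCTTaagagcaggagt
RBL2, chr16:53403471-53403500: gtcactcttttcAAGCTTtctttacattgt
MDM2, chr12:69199416-69199445: tgttcccagcctAAGCTTtttaccaccgaa
CDKN1A, chr6:36602777-36602806: aacaaaacttagAAGCTTgcgggagtgccc
CDKN1B, chr12:12808328-12808357: attcttttaaagAAGCTTcttctggccagg

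A score belongs to a whole bin and not to a gene. The RB1 start (position 48877880, plus strand) lies in the bin chr13:48795768-49003979, which also holds the start of ITM2B, a membrane protein gene. RBL1 starts at 35724400 on the minus strand and is the only protein-coding gene that starts in chr20:35599094-35801625. RBL2 starts at 53467889 in chr16:53403484-53599845, beside AKTIP. MDM2 starts at 69201957, close to the left edge of chr12:69199429-69403394, and shares the bin with CPM, which encodes carboxypeptidase M. CDKN1A starts at 36644237 in chr6:36602790-36796866, with RAB44, a gene of a Rab GTPase. CDKN1B starts at 12838432 in chr12:12808341-12999326, with APOLD1, DDX47 and GPR19. The most downstream start of each gene's protein-coding transcripts fell in the same bin for all 6. The bins differ in base composition and in the number of cut sites. CDKN1A had a GC content of 50.4%, at percentile 99.3 of chromosome 6, and 34 HindIII sites, at percentile 0.85. RB1 had a GC content of 37.6% and 62 sites, both near the middle of chromosome 13.

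The deposited score of a pair of bins is corrected for its distance and behaves like a logarithm, but its base is not given in the sources used here, so changes are given in score units and not as folds. Pairs up to 2 Mb apart were called local and pairs farther apart distal, and distal partners were split into A and B by the compartments of the Grow map. Each value is a mean over the pairs that all 4 maps list, and an SD given beside a change is that over pairs, which share a bin and are no replicates. A change of 0.2 score units or more was counted, with the share of all 13567 usable bins past the same limit as background. The Grow map listed 89.5% of the possible distal pairs, Grow-shA1 84.3%, OIS 80.5% and OIS-shA1 78.7%, and each map listed at least 99.9% of the local pairs. The number of reads behind a score is unknown. In every map the start bins of RB1, RBL1, RBL2 and MDM2 had 82.7% or more of their distal pairs listed. CDKN1B had between 70.3% and 77.1%. CDKN1A had 63.8% in Grow, 57.5% in Grow-shA1, 47.3% in OIS and 46.5% in OIS-shA1, which put its bin just under the limit of 50% of all pairs in the OIS and OIS-shA1 maps. It was read with that bin added, and counts of members are over the other 5.

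The largest distal changes with RAS were those of the MDM2 bin, which moved from contact with B to contact with A in both data sets. Its mean score with distal B bins was 0.090 in Grow, 0.074 in Grow-shA1, -0.427 in OIS and -0.353 in OIS-shA1. Both maps with active RAS thus lie below both maps of growing cells. The difference OIS minus Grow was -0.517 (SD 0.70 over 301 pairs), where the median of chromosome 12 was -0.074, and only 2 of the 641 bins of the chromosome fell further. With shA1 the RAS difference was -0.426 (SD 0.71), and 8 bins fell further.

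With distal A bins the MDM2 bin scored -0.052 in Grow, -0.046 in Grow-shA1, 0.222 in OIS and 0.285 in OIS-shA1. Here the maps with active RAS lie above those of growing cells. OIS minus Grow was 0.274 (SD 0.59 over 235 pairs), at percentile 96.1 of chromosome 12, and the RAS difference with shA1 was 0.331, at percentile 96.4. The preference for A, taken as the A score minus the B score, went from -0.142 in Grow and -0.119 in Grow-shA1 to 0.648 in OIS and 0.638 in OIS-shA1. The rise of 0.791 without shA1 was exceeded by 3 bins of chromosome 12, and that of 0.757 with shA1 by 6. Averaged over the 11 bins of the window, the RAS changes with A bins were 0.158 and 0.159 and those with B bins -0.250 and -0.178, smaller than at the start bin. The shA1 differences of this preference were small beside these, at -0.011 in OIS and 0.023 in Grow.

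By distance, the loss of contact between MDM2 and B bins was deepest nearby. At 2 to 5 Mb OIS minus Grow was -1.11 (SD 0.92 over 20 pairs), at 10 to 20 Mb -0.64 and over 50 Mb -0.37. The same steps with shA1 gave -1.21, -0.66 and -0.29. With A bins the change at 2 to 5 Mb was -0.07 in OIS minus Grow and 0.10 with shA1, and the rise lay mostly between 5 and 50 Mb. Between 5 and 10 Mb it was 0.45 without and 0.57 with shA1.

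**Figure D1:**
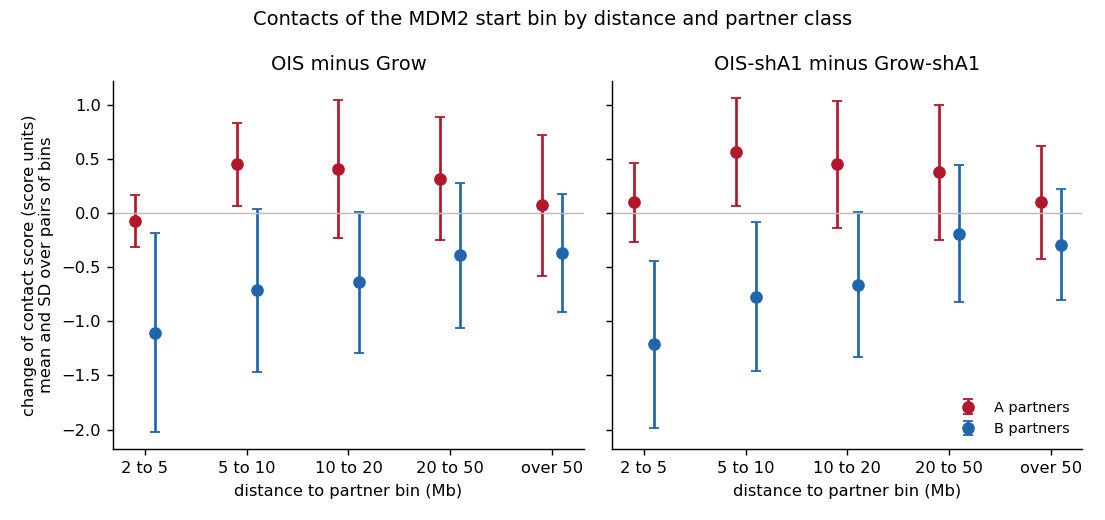
Change of the contact score of the MDM2 start bin (y axis, score units) by distance to the partner bin (x axis, Mb), for OIS minus Grow and for OIS-shA1 minus Grow-shA1. Points are means and bars the SD over pairs of bins, for A partners (red) and B partners (blue), and the B means are below 0 at every distance, from -1.11 at 2 to 5 Mb to -0.37 over 50 Mb without shA1.

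The compartment score, which is the loading of a bin on the first principal component of its chromosome and is positive in A, is computed from the same scores. For MDM2 it was -0.107 in Grow, -0.087 in Grow-shA1, 1.31 in OIS and 1.30 in OIS-shA1. The bin stood at percentile 59.0 of chromosome 12 in Grow and at 98.4 in OIS. Its change of 1.41 with RAS was at percentile 99.1 and that of 1.39 with shA1 at 98.4. This was a move of a stretch rather than of 1 bin: of the 11 bins of the window 3 were A in Grow and in Grow-shA1, and 8 in OIS and in OIS-shA1. The bin just before MDM2, in which NUP107, RAP1B and SLC35E3 start, was already A at 1.12 in Grow, as was the bin with CCT2 and FRS2 at 1.01. Between them, the bins of MDM2 (-0.11), of no gene start (-0.75) and of CPSF6, LYZ and YEATS4 (-0.41) rose to 1.31, 0.89 and 0.55 in OIS. Of all bins of chromosome 12, 10.1% went from B to A with RAS.

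**Figure D2:**
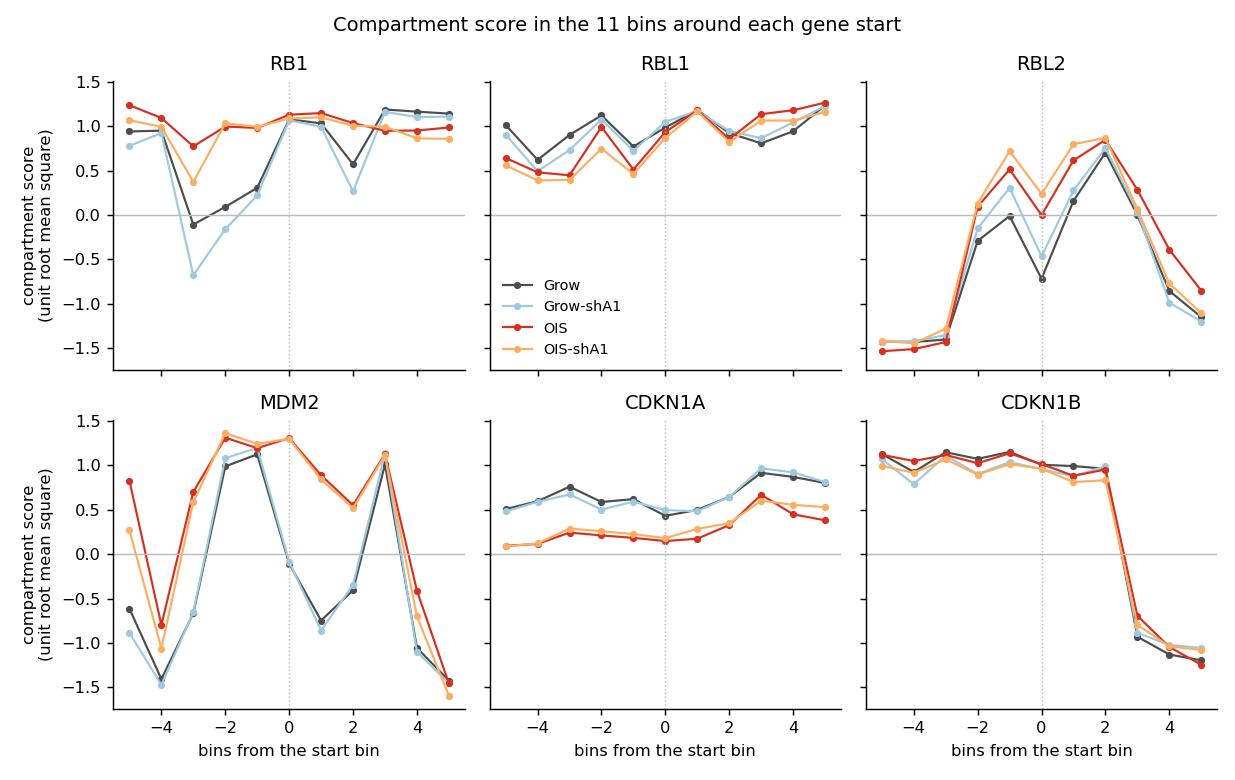
Compartment score (y axis, unit root mean square over the chromosome, A above 0) in the 11 bins around each gene start (x axis, bins of about 200 kb in genome order from the start bin), 1 line per map. In the MDM2 window the OIS and OIS-shA1 lines run above those of Grow and Grow-shA1 at the start bin (1.31 and 1.30 against -0.11 and -0.09), while the lines of CDKN1B lie close together in all 4 maps.

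Local contact of MDM2 fell as well. The score was -0.242 in Grow, -0.223 in Grow-shA1, -0.589 in OIS and -0.657 in OIS-shA1. The fall of -0.347 in OIS minus Grow was at percentile 19.3 of the chromosome, and 40.6% of all bins fell by at least 0.2, so it is no unusual value. With shA1 the change was -0.434, at percentile 7.3. Averaged over the 11 bins of the window the changes were -0.066 and -0.189, and the fall was deepest at the MDM2 bin itself in both data sets. With pairs up to 1 Mb the changes were -0.049 and -0.176, both within 0.2, so the fall depends on pairs between 1 and 2 Mb.

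The block of 5 distal bins with the largest fall of contact with the MDM2 window lay 4.90 Mb away, at chr12:73599938-74600917, where no protein-coding gene starts. Its score with the window was -0.392 in Grow, -0.230 in Grow-shA1, -1.66 in OIS and -1.11 in OIS-shA1. It was chosen as the lowest of 112 blocks in OIS minus Grow (-1.27), and in the RAS difference with shA1, which did not choose it, it was -0.877, at percentile 1.79. The largest rise was with chr12:46601891-47601856, 22.1 Mb away, where AMIGO2, PCED1B and the amino acid transporter genes SLC38A1, SLC38A2 and SLC38A4 start. That block scored -0.229 in Grow, -0.240 in Grow-shA1, 0.250 in OIS and 0.120 in OIS-shA1. Its change of 0.361 with shA1 was at percentile 92.9.

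Among the pocket protein genes, RB1 stood out by its local contact. The local score of the RB1 bin was -0.312 in Grow, -0.284 in Grow-shA1, 0.147 in OIS and -0.152 in OIS-shA1. Growing cells with and without shA1 lay close together, OIS was highest and OIS-shA1 lay between. OIS minus Grow was 0.459 (SD 0.21 over 20 pairs), against a median of -0.030 on chromosome 13, at percentile 93.7. A rise of at least 0.2 was seen in 13.1% of all bins. With shA1 the RAS difference was 0.133, at percentile 79.7, and OIS-shA1 minus OIS was -0.298, at percentile 8.79. The difference of the RAS changes with and without shA1 was -0.326, at percentile 7.11 of the chromosome. It was not tested.

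The rise was shared by the whole RB1 window. All 11 bins were higher in OIS than in Grow, by 0.363 to 0.560, and their mean of 0.457 was at percentile 95.9 of the 466 windows of 11 bins on the chromosome. All 11 were lower in OIS-shA1 than in OIS, with differences from -0.438 to -0.206. These bins share pairs with their neighbours. Inside the window all 55 pairs of bins scored higher in OIS than in Grow and none was higher in OIS-shA1 than in OIS. In OIS-shA1 minus Grow-shA1, 40 of the 55 were higher, with a mean of 0.152. Contact across the RB1 bin, which is the mean of the 25 pairs between the 5 bins before it and the 5 after it, was -0.417 in Grow, -0.455 in Grow-shA1, 0.065 in OIS and -0.251 in OIS-shA1. As in the local score, OIS was highest and OIS-shA1 lay between OIS and the maps of growing cells.

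**Figure D3:**
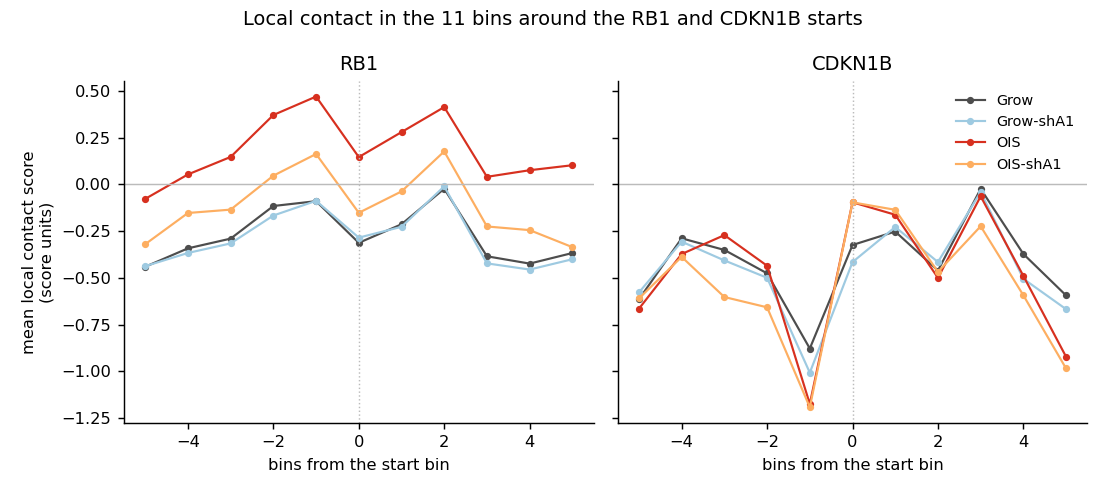
Mean local contact score (y axis, score units, pairs up to 2 Mb) in the 11 bins around the RB1 and CDKN1B starts (x axis, bins from the start bin in genome order), 1 line per map. Around RB1 the OIS line runs above the other 3 in all 11 bins, with 0.147 at the start bin against -0.152 in OIS-shA1, while around CDKN1B the start bin is higher with RAS and the bin before it lower.

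At a distance RB1 remained in A. Its compartment score was 1.08 in Grow, 1.07 in Grow-shA1, 1.13 in OIS and 1.09 in OIS-shA1, all at or above percentile 91.4 of chromosome 13. The bins before it changed more. The third bin before the start bin, with no gene start, scored -0.11 in Grow, -0.68 in Grow-shA1, 0.77 in OIS and 0.37 in OIS-shA1. In Grow 10 of the 11 bins were A and in Grow-shA1 9, while all 11 were A in OIS and in OIS-shA1. With distal B bins RB1 scored -0.574 in Grow, -0.704 in Grow-shA1, -0.736 in OIS and -0.907 in OIS-shA1. The RAS difference was -0.162 without and -0.203 with shA1, at percentiles 38.3 and 23.2, so many bins of the chromosome fell as far or further. With distal A bins the scores ran from -0.019 in Grow to 0.093 in OIS-shA1, and no difference reached 0.2. In OIS minus Grow the rise of contact with A lay within 10 Mb. It was 0.38 at 2 to 5 Mb and 0.43 at 5 to 10 Mb, beside 0.02 in the next step, at 10 to 20 Mb. The same steps with shA1 gave 0.03, 0.22 and 0.10. With B partners at 5 to 10 Mb the change was -0.50, and -0.67 with shA1.

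For RB1 the block with the largest rise lay 6.58 Mb away at chr13:41798809-42800464, an A region in which DGKH, MTRF1, NAA16, RGCC and VWA8 start. It scored -0.050 in Grow, -0.209 in Grow-shA1, 0.456 in OIS and 0.150 in OIS-shA1. The change in the RAS difference with shA1, which had no part in the choice, was 0.359, at percentile 94.9 of 78 blocks. The largest fall was with chr13:55801286-56797173, a B region with no gene start 7.42 Mb away. It was -0.896 in Grow, -0.803 in Grow-shA1, -1.92 in OIS and -1.72 in OIS-shA1. With shA1 the fall was -0.918, at percentile 3.85.

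RBL2 was the member with the most B contact in growing cells and lost part of it with RAS. Its score with distal B bins was 0.798 in Grow, 0.580 in Grow-shA1, 0.394 in OIS and 0.217 in OIS-shA1. It was lower with RAS in both data sets and lower with shA1 in both states. OIS minus Grow was -0.404 (SD 0.56 over 176 pairs), at percentile 20.3 of chromosome 16, where the median was -0.244. The RAS difference with shA1 was -0.363, at percentile 16.8. Set against the chromosome median, these changes were -0.159 and -0.174, both within 0.2. The differences Grow-shA1 minus Grow of -0.218 and OIS-shA1 minus OIS of -0.177 were at percentiles 7.94 and 6.76.

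With distal A bins RBL2 scored 0.141 in Grow, 0.182 in Grow-shA1, -0.007 in OIS and 0.124 in OIS-shA1, and no difference passed 0.2. The A score minus the B score rose from -0.657 in Grow to -0.398 in Grow-shA1, -0.401 in OIS and -0.093 in OIS-shA1, so each of RAS and shA1 went with a rise of 0.256 to 0.308. The compartment score went the same way, with -0.717 in Grow, -0.466 in Grow-shA1, -0.000696, which is close to 0, in OIS and 0.240 in OIS-shA1. Its RAS differences of 0.716 and 0.706 were at percentiles 94.7 and 95.6. Averaged over the 11 bins of the window, the RAS changes of the compartment score were 0.278 and 0.221. Over the same bins the RAS changes with A bins were -0.296 and -0.231 and those with B bins -0.259 and -0.206. The rise of A contact minus B contact with RAS was thus seen at the start bin and not over the window. In compartment score the RBL2 bin was lower than its neighbours: in Grow the bin before it was at -0.01, the bin after it at 0.16 and the next at 0.70. The local score of RBL2 was the highest of the 6 genes and hardly moved, with 1.06 in Grow, 1.01 in Grow-shA1, 1.06 in OIS and 1.08 in OIS-shA1.

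By distance, RBL2 kept its contact with B bins at 2 to 5 Mb (1.58 in Grow and 1.72 in OIS). Farther away it had less in OIS, with 0.75 in Grow and 0.38 in OIS at 20 to 50 Mb. At 5 to 10 Mb its B score was 0.86 in Grow, 0.73 in Grow-shA1, 0.15 in OIS and -0.01 in OIS-shA1. The deepest fall in OIS minus Grow, of -0.907, was with chr16:60798697-61798795, a B region without gene starts 7.83 Mb away. In the RAS difference with shA1 that block changed by -0.794, at percentile 1.85 of 54 blocks. The largest rise, of 0.206, was with chr16:46803807-47801481, where C16orf87, DNAJA2, GPT2, ITFG1, MYLK3, NETO2 and PHKB start, and it was 0.078 with shA1.

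RBL1, the gene of p107, lay in A throughout. Its compartment score was 0.987 in Grow, 1.05 in Grow-shA1, 0.936 in OIS and 0.870 in OIS-shA1, and all 11 bins of its window were A in every map. With distal B bins it scored -0.824 in Grow, -1.02 in Grow-shA1, -0.851 in OIS and -0.895 in OIS-shA1. Grow-shA1 was lowest, with a difference of -0.193 from Grow, at percentile 4.68 of chromosome 20. The RAS difference was -0.027 without and 0.122 with shA1. With distal A bins the scores were 0.024, 0.047, -0.061 and 0.128 in Grow, Grow-shA1, OIS and OIS-shA1, with a difference of 0.189 between OIS-shA1 and OIS, at percentile 91.3. Local contact was -0.510 in Grow, -0.525 in Grow-shA1, -0.552 in OIS and -0.747 in OIS-shA1, so the RAS difference was -0.042 without and -0.222 with shA1, at percentiles 54.8 and 18.4. Of the 11 bins of the window 8 were lower in OIS-shA1 than in Grow-shA1, with a mean of -0.089, while the bin before the start bin was higher by 0.23, so that the mean over the start bin and 1 bin on each side was 0.0062.

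The block with the largest rise of contact with the RBL1 window was chr20:43798827-44793658, 8.57 Mb away, a gene-dense region with 42 gene starts, among them MMP9, SDC4, SLPI, UBE2C and many WFDC genes. Most of the block was B, with 1 of its 5 bins A in Grow and 2 in OIS. It scored -0.458 in Grow, -0.441 in Grow-shA1, -0.142 in OIS and 0.261 in OIS-shA1. It was also the highest of the 36 blocks in the RAS difference with shA1, at 0.702. The deepest fall was with chr20:40794679-41798275, a B region with no gene start, chosen by its -0.734 in OIS minus Grow. With shA1 the change was -0.638, at percentile 2.78 of the 36 blocks.

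By compartment score CDKN1A lay in A in all 4 maps but nearer to the boundary with RAS. Its compartment score was 0.431 in Grow, 0.496 in Grow-shA1, 0.147 in OIS and 0.180 in OIS-shA1. The RAS differences of -0.284 and -0.316 were at percentiles 12.8 and 8.75 of chromosome 6, the opposite direction to MDM2 and RBL2. Unlisted pairs count as 0 in these scores. From only the pairs listed in all 4 maps, the score was 0.085 in Grow and 0.0135 in OIS. It was then 0.197 in Grow-shA1 and 0.0998 in OIS-shA1, so the falls with RAS kept their direction but were smaller. The mean over its window fell from 0.658 in Grow to 0.272 in OIS and from 0.651 in Grow-shA1 to 0.316 in OIS-shA1, while all 11 bins stayed A. Its contact with A bins went the other way. It scored -0.064 in Grow, -0.021 in Grow-shA1, 0.073 in OIS and 0.071 in OIS-shA1. The RAS differences of 0.137 (SD 0.71 over 190 pairs) and 0.092 were at percentiles 92.0 and 78.6.

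With distal B bins CDKN1A had the lowest scores of the 6 genes, -1.33 in Grow, -1.41 in Grow-shA1, -1.39 in OIS and -1.27 in OIS-shA1. These rest on 39 of 439 possible pairs, because most of its pairs with B bins were unlisted in at least 1 map. The share of its distal B pairs listed was 42.8% in Grow, 36.2% in Grow-shA1, 24.1% in OIS and 22.6% in OIS-shA1, so the pairs that could be read in all maps are a minority and may not stand for the rest. The RAS difference was -0.058 without and 0.143 with shA1. The A score minus the B score, which rests on the same B pairs, did not move towards B without shA1. It was 1.27 in Grow, 1.39 in Grow-shA1, 1.47 in OIS and 1.34 in OIS-shA1, all at or above percentile 97.2 of chromosome 6. Its RAS differences were 0.195 without and -0.051 with shA1, at percentiles 74.5 and 48.2. Local contact of CDKN1A was -0.495 in Grow, -0.653 in Grow-shA1, -0.551 in OIS and -0.662 in OIS-shA1, lower with shA1 in both states and with RAS differences of -0.056 and -0.008. The window of CDKN1A gained most contact with chr6:42997901-44001786, 6.86 Mb away, where 25 genes start, among them VEGFA, SRF, POLH and XPO5. That block scored 0.219 in Grow, 0.284 in Grow-shA1, 0.852 in OIS and 0.773 in OIS-shA1. With shA1 the change was 0.489, at percentile 95.7 of 70 blocks. The largest fall, with chr6:112799206-113801776 at 76.7 Mb, was -0.526 in OIS minus Grow and -0.196 with shA1, at percentile 17.1. Unlike the fall blocks of the other members, this was an A region, with all 5 bins A in Grow and in OIS.

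CDKN1B stayed in A with almost no change of compartment score, at 1.01 in Grow, 0.957 in Grow-shA1, 1.01 in OIS and 0.962 in OIS-shA1. It had the highest distal A score of the 6 genes, 0.436 in Grow, 0.424 in Grow-shA1, 0.399 in OIS and 0.434 in OIS-shA1, and the largest of the 4 differences was -0.037, in OIS minus Grow. With distal B bins it scored -0.650 in Grow, -0.662 in Grow-shA1, -0.508 in OIS and -0.458 in OIS-shA1. The RAS differences of 0.142 and 0.205 were at percentiles 90.2 and 96.1 of chromosome 12, so this bin moved towards B contact where MDM2, on the same chromosome, moved away from it. The first value is below the limit of 0.2 and the second just past it. They rest on 138 of 375 possible pairs. Averaged over the 11 bins of the window they were -0.028 and 0.0034. The rise was not confined to the start bin. The third bin before it changed by 0.143 in OIS minus Grow and 0.125 with shA1. The fifth bin after it, a B bin, fell, by -0.134 and -0.151.

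The start bin of CDKN1B sits beside an edge of local contact. Its score with the 5 bins upstream was 1.09 in Grow, 1.01 in Grow-shA1, 1.32 in OIS and 1.12 in OIS-shA1. With the 5 bins downstream it was -1.12 in Grow, -1.15 in Grow-shA1, -1.14 in OIS and -1.02 in OIS-shA1. Contact across the bin was -1.28 in Grow, -1.36 in Grow-shA1, -1.61 in OIS and -1.91 in OIS-shA1, between percentiles 7.21 and 11.3 of the chromosome. The RAS differences of that value were -0.335 and -0.553, at percentiles 21.6 and 6.89, so the first is no unusual value. The mean local score of the bin rose at the same time, from -0.324 in Grow and -0.415 in Grow-shA1 to -0.095 in OIS and -0.096 in OIS-shA1. The rises of 0.229 and 0.319 were at percentiles 87.7 and 96.9. They belong to the start bin and not to the region: averaged over the window the changes were -0.047 and -0.080, and the bin before it, with the starts of CREBL2 and DUSP16, changed by -0.30 in OIS minus Grow. With pairs up to 1 Mb the rises were 0.106 and 0.118, within the limit of 0.2.

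For CDKN1B the largest rise of contact was with chr12:31000715-32003903, 18.7 Mb away, where 8 genes start, among them AMN1, DDX11, DENND5B, ETFBKMT, H3-5, SINHCAF and TSPAN11, with 0.368 in OIS minus Grow and 0.245 with shA1, at percentile 96.2 of 78 blocks. The deepest fall was with chr12:16999214-18001229, a B region without gene starts 4.66 Mb away. It scored -0.724 in Grow, -0.670 in Grow-shA1, -1.56 in OIS and -1.25 in OIS-shA1. With shA1 the change was -0.576, the lowest of the 78. The windows of MDM2 and CDKN1B, 56.4 Mb apart, had a mean score with each other of 0.145 in Grow, 0.134 in Grow-shA1, 0.0054 in OIS and 0.019 in OIS-shA1, over 95 of 121 pairs, and the change of -0.139 had an SD of 0.58 over pairs.

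**Figure D4:**
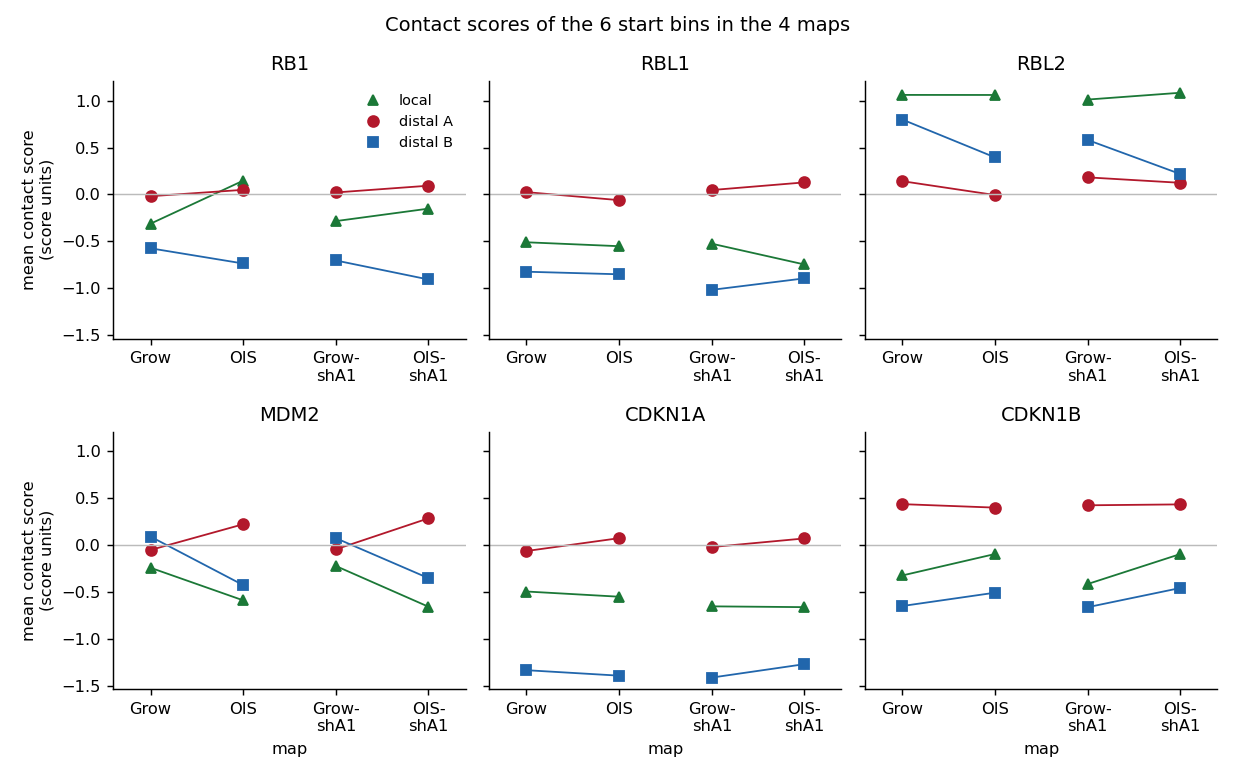
Mean contact score (y axis, score units) of each of the 6 start bins in the 4 maps (x axis), for local pairs (green triangles), distal A partners (red circles) and distal B partners (blue squares), with lines joining the maps of 1 data set. MDM2 goes from 0.090 to -0.427 with B partners and from -0.052 to 0.222 with A partners in OIS, with similar lines in the shA1 maps, and RB1 shows its rise of local contact mainly without shA1.

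Over the 5 genes with a usable start bin, the counts past 0.2 score units stood as follows. In OIS minus Grow, local contact rose at RB1 and CDKN1B (13.1% of all bins rose) and fell at MDM2 (40.6% fell), and the median of the 5 was -0.000619 beside -0.119 over all bins. Distal contact with A rose at MDM2 (5.34% of all bins) and fell at none (25.2%), with a median of -0.037 beside -0.043. Distal contact with B fell at RBL2 and MDM2 (27% of all bins) and rose at none (4.63%), with a median of -0.162 beside -0.089. So 2 of 5 fell where 27 in every 100 bins did, and the count alone says nothing particular of these genes.

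In OIS-shA1 minus Grow-shA1, local contact rose at CDKN1B (8.17% of all bins) and fell at RBL1 and MDM2 (30.4%). Contact with A rose at MDM2 (8.47%) and fell at none (20.3%). With B bins it fell at RB1, RBL2 and MDM2 (23.9%), by 0.203 at RB1, just past the limit, and rose at CDKN1B (6.26%). MDM2 was thus past the limit in local contact, with A bins and with B bins in both data sets. RBL2 was so with B bins in both and CDKN1B in local contact in both. Between the data sets fewer of the genes passed the limit. OIS-shA1 minus OIS passed the limit at RB1 in local contact (19.1% of all bins fell and 18.7% rose) and at no gene with A bins (7.16% rose and 5.1% fell) or with B bins (3.45% rose and 9.43% fell). Grow-shA1 minus Grow passed it at RBL2 with B bins (4.59% of all bins fell and 0.553% rose) and at no gene in local contact (6.09% fell and 0.339% rose) or with A bins (3.74% fell and 0.162% rose).

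In A contact minus B contact, RB1, RBL2 and MDM2 rose with RAS without shA1 (27.5% of all bins rose and 25.2% fell) and with shA1 (26.1% rose and 20.6% fell), by 0.230 to 0.791 in the first and by 0.275 to 0.757 in the second. RB1, RBL1 and RBL2 were higher in OIS-shA1 than in OIS (22.9% rose and 9.77% fell), by 0.215 to 0.308. RBL1 and RBL2 were higher in Grow-shA1 than in Grow (7.22% rose and 5.18% fell), by 0.216 and 0.258. None of the 5 fell past the limit in any of the 4 comparisons. The rises between the data sets were all at pocket protein genes, but these make up most of the 5 counted. An effect of shA1 on them cannot be told apart from a difference between the data sets. For compartments, MDM2 went from B to A with RAS (8.9% of all bins, and 0.818% from A to B), and MDM2 and RBL2 did so with shA1 (7.81%, and 1.3%). Of the 5 genes only MDM2 and RBL2 were B in Grow and in Grow-shA1. RBL2 also went from B to A between OIS and OIS-shA1 (1.47%, and 3.07%), from a score close to 0, and no gene changed compartment between Grow and Grow-shA1 (1.64%, and 1.66%).

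**Figure D5:**
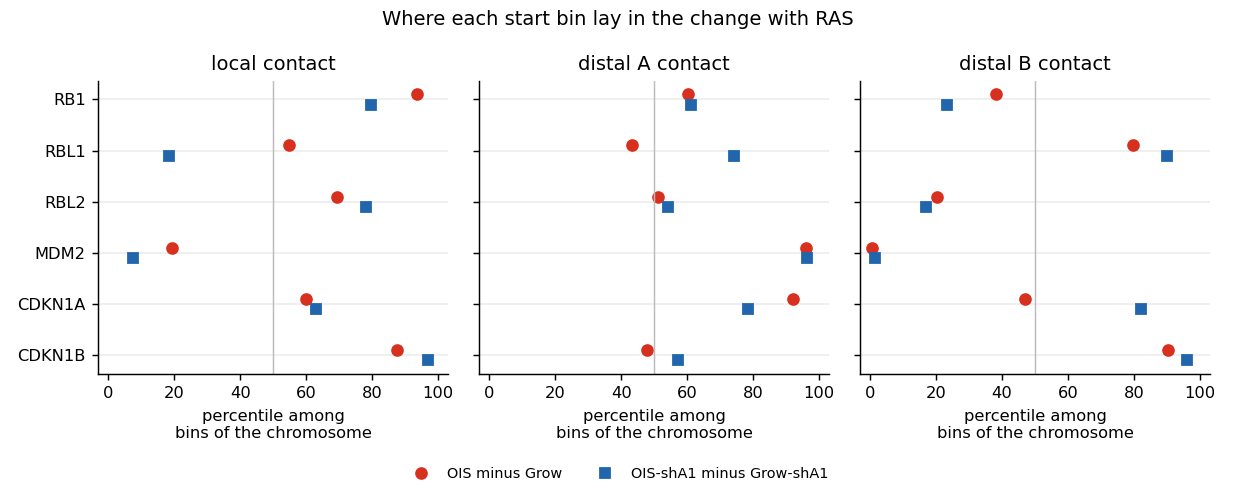
Percentile of the RAS change of each start bin among the bins of its own chromosome (x axis, 0 to 100, with a line at 50), for local, distal A and distal B contact, without shA1 (red circles) and with shA1 (blue squares). MDM2 stands near 0 for distal B contact and at 96.1 and 96.4 for distal A contact, while the other 5 genes are spread over the range.

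The wider pathway was read in 52 other genes in 5 groups, 47 of them with a usable start bin. E2F2, TFDP1, CCND1, CDC25A and SESN2 had none. In OIS minus Grow, distal contact with B bins rose at 1 of the 47 and fell at 17 (36.2%, beside 27% of all bins), with a median of -0.09, the same as over all bins. Of the 13 E2F and MuvB partners 5 fell and none rose. Of 7 cyclin and CDK genes 2 fell, of the 5 other CDK inhibitors 3, of 7 p53 regulators 3 and of 15 p53 targets 4, with 1 rise. The deepest fall was that of ATM, the kinase that activates p53 after DNA breaks, with 0.153 in Grow, 0.060 in Grow-shA1, -0.365 in OIS and -0.438 in OIS-shA1. E2F6, a repressive E2F, went from 0.046 in Grow and 0.011 in Grow-shA1 to -0.444 and -0.453. CDKN2A, which encodes the p16 inhibitor and ARF, an inhibitor of MDM2, was 0.226 in Grow, 0.159 in Grow-shA1, -0.255 in OIS and -0.029 in OIS-shA1. ATM and E2F6 thus fell by about as much as MDM2 in both data sets, and CDKN2A less with shA1.

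The largest rise was that of the p53 target PHLDA3, with -0.969 in Grow, -1.03 in Grow-shA1, -0.681 in OIS and -0.655 in OIS-shA1. CCND3, a D-type cyclin, and RBBP4, a MuvB subunit, followed with 0.071 each, under the limit. In local contact 6 of the 47 rose (12.8%, beside 13.1% of all bins) and 18 fell (38.3%, beside 40.6%) in OIS minus Grow. By group, none of the 13 E2F and MuvB partners rose and 5 fell, 2 of the 7 cyclin and CDK genes rose and none fell, 4 of the 5 other CDK inhibitors fell, 3 of the 7 p53 regulators fell, and 4 of the 15 p53 targets rose and 6 fell. With shA1 the RAS difference of B contact was past the limit upwards at 1 and downwards at 11 of the 47 (23.4%, beside 23.9% of all bins). Compartments went from B to A with RAS at 4 genes (E2F8, SKP2, CHEK1 and SESN1) of the 47, beside 8.9% of all bins, and from A to B at none. With shA1 4 of the 47 did so, beside 7.81% of all bins, of which E2F8, CHEK1 and SESN1 were the same and E2F7 was different. Only a bin in B can make this move, and 10 of the 47 were B in Grow and 11 in Grow-shA1. Over all bins, 1208 of the 7868 that were B in Grow went to A in OIS.

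Likeness between genes was measured as the Euclidean distance over 12 values, the local, distal A and distal B scores in the 4 maps. Candidates were the other members and the pathway genes with a usable start bin, together 52, so these are not the 52 pathway genes above. MDM2 was nearest to LIN9, a MuvB subunit, at 0.666, where its median distance to the 52 genes compared was 1.55. RB1 was nearest to BTG2 (0.571, median 1.76), RBL1 to PLK3 (0.390, median 1.68) and CDKN1B to FAS (0.425, median 1.58). CDKN1A was also nearest to PLK3, at 0.776. RBL2, with its high local and B scores, lay far from most genes, with a median distance of 3.78 and CCNG1 nearest at 1.11.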

How the data were processed

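Per the labels and the study's methods, the authors used HiC-Pro and hg19 to align the reads, discarded artefacts and duplicates, and counted contacts in bins of about 200 kb with HindIII edges. Each deposited map gives an iteratively balanced, distance-corrected score per pair of bins on 1 chromosome, with replicates pooled. All 23 chromosome ends of the deposited bins equalled GRCh37. Starts came from GENCODE release 44 lifted to GRCh37. Here scores were averaged over pairs listed in all 4 maps, in bins with at least 50% of their pairs listed, and compartments were first principal components oriented by gene starts. Scripts (Python 3.11.15, numpy 2.4.6, pandas 2.3.3, scipy 1.17.1, matplotlib 3.10.9) were tested on simulated data. The members and lists were chosen with earlier results of these data known. Beside the members, the text names genes starting in their bins, the pathway genes that rose most and fell most in B contact in OIS minus Grow (3 each), the blocks with the largest rise and fall, the nearest gene by pattern, and genes that changed compartment. Genes of other window bins were named after their values were seen. Alternatives changed the pairs, bins, scale, centring, extreme values, distances, partner classes and gene starts.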

Additional observations from a re-analysis of the deposited data

Results flagged for a closer look

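The contact of CDKN1A with distal B bins changed with RAS in opposite directions in the data sets, from -1.33 in Grow to -1.39 in OIS and from -1.41 in Grow-shA1 to -1.27 in OIS-shA1. The RAS difference was -0.058 without and 0.143 with shA1, and the difference between these of 0.201 was not tested. It rests on 39 pairs of bins, with an SD over pairs of 0.65 for the first change and 0.67 for the second. Between 42.8% and 22.6% of the B pairs of this bin were listed in a map.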

How the results depend on the processing

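Of the 72 differences of the 6 genes in local, distal A and distal B contact, 16 were past 0.2 score units. All 16 stayed past it with every bin, with every pair listed in each map and with the most downstream starts, 14 with unlisted pairs at 0, 13 with extreme values limited, and 12 each when scores were divided by the SD at their distance, centred on the common pairs or set against the chromosome median. With the start bin and 1 bin on each side 11 did and with the mean over the window 6. Of the 7 local values 3 stayed with pairs up to 1 Mb, and of 9 distal values all stayed at 2 to 50 Mb and 8 each over 5 Mb and with partners classed by Grow-shA1. Many of these values belong to single bins. The cause of these changes was not tested. Over alternatives the B contact of MDM2 changed by -0.55 to -0.25 in OIS minus Grow and by -0.46 to -0.18 with shA1. The -0.55 and -0.46 came from scores divided by the SD, so they are in SD units and not in score units. The limit of 0.2 was kept for that setting. The local contact of RB1 in OIS minus Grow changed by 0.38 to 0.51. Divided by the SD, the median B change of the members was 0.043 in OIS minus Grow and 0.047 in OIS-shA1 minus Grow-shA1, the latter being the value of RB1. Minus the chromosome median, that of Grow-shA1 minus Grow was -0.037. Local contact of RBL1 in OIS-shA1 minus Grow-shA1 was 0.0062 over 3 bins. That of CDKN1B was -0.047 in OIS minus Grow and -0.080 with shA1 over the window. The compartment score of RBL2 in OIS was 0.00050 per chromosome arm and 0.136 from the common pairs, and in OIS-shA1 -0.290 over the window. With the CDKN1A start bin, added after seeing the data, the median B change was -0.110 in OIS minus Grow and -0.040 with shA1, and the counts stayed equal. No paired analysis was possible because each map pools its replicates. Pairs of low contact were more often unlisted, which limits what can be said of B contact at CDKN1A and CDKN1B.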
